A study of Mus musculus with 20 samples.

Results

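Foxd2 and its neighbour Foxd2os are 2 of the 54446 genes listed in the deposited expression tables of gastruloids and trunk-like structures made from mouse embryonic stem cells. They were chosen by symbol, because their levels over the 5 bulk groups of the study had already been seen to differ. Those levels are therefore described here without a test. Both genes were listed in all 15 bulk libraries, and both passed the filter on low values, a mean of at least 1 TPM (a transcript level corrected for length and scaled to the same total in every library). They passed it through the groups in which they were high.

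All libraries came from 1 embryonic stem cell background, F1G4, carrying 2 reporters, T::H2B-mCherry and Sox2::H2B-Venus. Every group, the controls included, had been exposed at 48 h to a pulse of 3 µM CHIR99021, which activates WNT signalling. The 96h group is the common precursor, pooled at 10 structures per library. The other groups were collected at 120 h with 6 structures per library. Gastruloid denotes aggregates without Matrigel, a gel of basement membrane proteins, and TLSMG denotes trunk-like structures in Matrigel. TLSMGC had CHIR added to the Matrigel culture, and TLSMGCL had CHIR and LDN, an inhibitor of BMP receptors. Each group had 3 biological replicates. Structures were picked for an asymmetric pole, so the libraries describe picked structures. The 5 single-cell samples of the series were not analysed here.

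Foxd2 encodes a transcription factor of the forkhead family, whose members bind DNA through a winged-helix domain. In the embryo it is known from the paraxial mesoderm, which forms the somites, and from the mesenchyme of the kidney. Foxd2os is a long noncoding RNA transcribed away from Foxd2 on the opposite strand.

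On mouse build GRCm38 (mm10), Foxd2 (ENSMUSG00000055210.4) lies on the minus strand of chromosome 4 from 114906282 to 114908873. It has a single exon of 2592 bases, of which 1476 are coding. Foxd2os (ENSMUSG00000085399.7) lies on the plus strand from 114909257 to 114921967, so that the annotated starts face away from each other with 383 bases between them and the exons do not overlap. Of the stretches of 75 bases in the annotated transcripts of both genes, 0 occur in the transcripts of the other genes searched. Foxd2, Foxd2os and their neighbours 9130410C08Rik and Foxe3 were not searched against each other.

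The 250 bases upstream of the Foxd2 start are shown because they fill most of the gap between the divergent genes. They cover chr4:114908899-114909148 on the minus strand of GRCm38.p6 and come from RefSeq. The promoter table matched Foxd2, 1 of the 2 genes. Capitals mark matches to GGGCGG, the GC box, on either strand, and to AGGGGGCGC, core letters of the CTCF motif, which were looked for after the sequence had been seen.
Foxd2 upstream: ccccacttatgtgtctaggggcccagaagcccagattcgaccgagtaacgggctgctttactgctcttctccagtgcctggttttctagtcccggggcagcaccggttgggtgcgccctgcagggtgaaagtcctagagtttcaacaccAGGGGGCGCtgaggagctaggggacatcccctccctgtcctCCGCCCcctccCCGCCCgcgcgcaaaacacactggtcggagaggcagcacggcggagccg

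The Foxd2 window held 16 CpG pairs and a GC content of 64.4%. The median over the same window of 32851 mouse promoters was 6 CpG pairs, and 74.6% of the promoters had fewer than Foxd2. GGGCGG occurred at positions 191 and 202, counted from the 5′ end of the printed sequence and both read on the other strand, and 32.7% of all promoters hold it. AGGGGGCGC occurred at position 150 and in 1.11% of promoters. The letters CTTTGAT and CTTTGAA, forms of the TCF/LEF motif of WNT signalling, gave 0 matches on both strands. They are present in 3.21% and 4.46% of promoters. TGTTTAC, a forkhead motif, and TATAAA, the TATA box, also gave 0 matches, against 3.17% and 12.4% of all promoters. None of the motifs searched overlapped another in this window. These matches describe letters only.

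Foxd2os has 2 annotated transcripts that share their first exon and part at its end. The junctions are shown because the division between the transcripts is described below. The lower-case bases are the end of the shared first exon (chr4:114909639-114909658, plus strand, GRCm38) and the capitals are the first bases of the next exon.
Foxd2os-201: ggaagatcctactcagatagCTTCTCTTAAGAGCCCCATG
Foxd2os-202: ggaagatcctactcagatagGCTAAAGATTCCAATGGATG
Foxd2os-201 has 4 exons and 2908 bases. Its second exon runs from 114912170 to 114913874, a length of 1705 bases. Foxd2os-202 passes over it to the exon from 114916189 to 114916310 and has 5 exons and 1015 bases.

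The transcription factor gene Foxd2 was close to silent at 96 h. Its level was 1.09, 0.58 and 0.327 TPM in replicates 1 to 3 of the 96h group. At 120 h it was 44.3, 43.7 and 51.5 TPM in Gastruloid and 51.2, 43.8 and 52.2 TPM in TLSMG. All 6 of these libraries lay far above the 96h libraries, and the Gastruloid and TLSMG libraries overlapped each other.

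With CHIR added in Matrigel, Foxd2 stood at 0.272, 0.748 and 0.19 TPM in TLSMGC. With CHIR and LDN it stood at 0.153, 0.53 and 0.0739 TPM in TLSMGCL. Both groups lay below every TLSMG library without overlap, while they overlapped each other and the 96h libraries. The group means were 0.667 ± 0.391 (SD, n = 3) at 96h, 46.5 ± 4.34 in Gastruloid, 49.1 ± 4.59 in TLSMG, 0.404 ± 0.301 in TLSMGC and 0.252 ± 0.244 in TLSMGCL. In the order of means from TLSMG through Gastruloid, 96h and TLSMGC to TLSMGCL, neighbouring groups overlapped except at the step from Gastruloid to 96h.

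The noncoding RNA Foxd2os followed the same division into high and low groups at a lower level per length. It was at 0.26, 0.244 and 0.476 TPM at 96h. It reached 25.2, 28.6 and 29.5 TPM in Gastruloid and 25.1, 24.7 and 27.3 TPM in TLSMG. The 6 high libraries again overlapped between their groups and lay above all others.

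In TLSMGC the Foxd2os values were 0, 0.173 and 0.0768 TPM, and in TLSMGCL they were 0.102, 0.106 and 0 TPM. Every 96h library lay above every TLSMGC and TLSMGCL library, a separation that Foxd2 did not show. Such a separation of 96h above TLSMGC held for 25.5% of the 14290 genes that passed the filter, and of 96h above TLSMGCL for 28.4%, so it is common in these data. The libraries in which Foxd2os was listed at 0, TLSMGC replicate 1 and TLSMGCL replicate 3, had the lowest relative depth of the 15, at 3.12 and 3.18 units of coverage per FPKM against 6.84 at most. FPKM is a level per transcript length and library size, so read depth over a gene per FPKM grows with the sequencing of the library. The part of depth in these zeros was not tested.

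**Figure D1:**
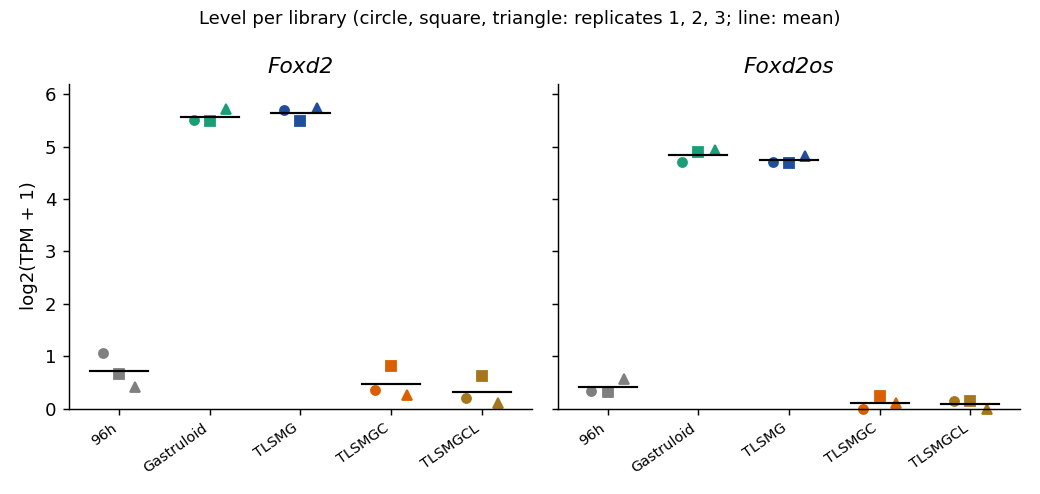
Levels of Foxd2 and Foxd2os on the log2(TPM + 1) scale (vertical axis) in the 5 groups (horizontal axis), with 1 symbol per library and a line at the mean of 3 replicates. In both panels the 6 Gastruloid and TLSMG libraries stand far above the 9 others.

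The differences on the log2(TPM + 1) scale are given with the standard error of the linear model fitted to all genes. For Foxd2 the difference was 4.85 (SE 0.19) from 96h to Gastruloid and 4.93 (SE 0.19) from 96h to TLSMG. Of 14290 genes, 2 had a larger rise than Foxd2 in the first comparison and 3 in the second. From TLSMG to TLSMGC the Foxd2 difference was -5.17 (SE 0.19), the lowest of all 14290 genes, and from TLSMG to TLSMGCL it was -5.33 (SE 0.19), with 1 gene lower. In ratios of mean TPM, Foxd2 was 69.7 times higher in Gastruloid than at 96h and 122 times higher in TLSMG than in TLSMGC. The same ratios were 85 and 309 for Foxd2os. The ratios rest on low values in the lower group. The ranks hold on the log2(TPM + 1) scale. With 0.1 TPM added in place of 1, Foxd2os was lower than Foxd2 from TLSMG to TLSMGC, at -7.25 against -6.76.

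For Foxd2os the differences were 4.44 (SE 0.11) from 96h to Gastruloid and 4.33 (SE 0.11) from 96h to TLSMG. They were -4.63 (SE 0.11) from TLSMG to TLSMGC and -4.64 (SE 0.11) from TLSMG to TLSMGCL. In these last comparisons Foxd2os ranked 2 and 3 from the lowest. The Foxd2os levels also depend on how its abundance was divided between its 2 transcripts, which is described below. The comparisons with 96h share the 96h libraries, and those with TLSMG share the TLSMG libraries, so their values are not independent of each other.

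Between Gastruloid and TLSMG the difference was 0.08 (SE 0.19) for Foxd2 and -0.11 (SE 0.11) for Foxd2os. Between TLSMGC and TLSMGCL it was -0.16 (SE 0.19) and -0.02 (SE 0.11). Neither pair of groups separated for either gene. In bulk RNA, fewer cells that express a gene and less RNA per cell cannot be told apart.

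The change was seen against a background in which much of the transcriptome differed. An adjusted p under 0.05 (limma, Benjamini-Hochberg over 14290 genes) was reached by 41.2% of genes between 96h and Gastruloid, 46.0% between 96h and TLSMG, 39.3% between Gastruloid and TLSMG, 40.9% between TLSMG and TLSMGC and 44.9% between TLSMG and TLSMGCL. Between TLSMGC and TLSMGCL it was 1.18%. In the same order, 20.8%, 33.5%, 31.5%, 10.4%, 9.31% and 0.406% were higher in the group named second, and 20.5%, 12.5%, 7.87%, 30.5%, 35.6% and 0.777% were lower. With median-of-ratios scaling, 2744 genes were higher and 2560 lower from TLSMG to TLSMGC, in place of 1490 and 4352. The median log2 difference over all genes was 0.00, 0.14, 0.13, -0.16, -0.18 and -0.04 as deposited, and that scaling brought the medians from 96h to TLSMG and from TLSMG to TLSMGC to -0.018 and 0.000. Genes at or above 1 TPM numbered 13688 to 14494 per library, and coverage per FPKM ran from 3.12 to 6.84.

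The 6 Gastruloid and TLSMG libraries all lay above the 9 others in 1064 genes, or 7.45% of those that passed the filter. The gap was measured as the lowest of the 6 levels over the highest of the 9, each with 1 TPM added. It reached 2 in 67 genes (0.469%), 4 in 11 genes (0.0770%) and 8 in 4 genes (0.0280%). Foxd2 had the widest gap, at 21.4, and Foxd2os the next, at 17.4. They were followed by Pax1, a paired-box gene of the sclerotome, at 10.1, and by the noncoding RNA 9130410C08Rik, at 9.85. Twist2, a bHLH gene of mesenchyme, had 7.08. The order rests on the added 1 TPM. The highest of the 9 levels was 1.09 TPM for Foxd2, 0.476 for Foxd2os and 0 for 9130410C08Rik. The lowest of the 6 was 43.7, 24.7 and 8.85 TPM in the same order. Since Foxd2 and Foxd2os were chosen for this pattern, their place in the order is a description.

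Relative to Foxd2, Foxd2os stood at 0.568, 0.655 and 0.573 of its TPM in the Gastruloid replicates and at 0.49, 0.564 and 0.523 in TLSMG. These ratios ran from 0.49 to 0.655 in the 6 libraries in which both genes were high, and each Gastruloid ratio lay above each TLSMG ratio. At 96h they were 0.238, 0.421 and 1.46, so that in replicate 3 the noncoding RNA was listed above its neighbour. The low values behind that ratio correspond to 1649 aligned bases on Foxd2 and 2692 on Foxd2os. In TLSMGC the ratios were 0, 0.231 and 0.404, and in TLSMGCL 0.668, 0.2 and 0, also on low values. Taken from coverage in place of TPM, the ratios of Gastruloid (0.233 to 0.268) and TLSMG (0.215 to 0.257) overlapped.

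In rank, Foxd2 lay between the 71.2 and the 77.2 percentile of the 14290 genes in the high libraries and Foxd2os between the 56.3 and the 64.4 percentile. At 96h, Foxd2 was at percentile 5.5, 2.3 and 1.2. Its aligned bases ran from 194781 to 413784 in the high libraries and from 299 to 5893 in the low ones.

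The division of Foxd2os between its transcripts was calculated from its gene-level coverage and FPKM, since the tables used here hold 1 level per gene. For a gene with 2 transcripts, the coverage over its exons divided by its FPKM, relative to the same quotient of Foxd2 with its single exon, depends on how the abundance was shared between the longer and the shorter form. The calculation assumes that the quantification used the GENCODE M21 pair of transcripts shown above, and the annotation release is not given in the sources used here. Among other genes with 2 transcripts in that annotation and an FPKM above 5, 94.9% of 10850 values lay between the limits for all-short and all-long abundance, within a tolerance of 0.01. This compares the limits and does not check the shares between them, and Foxd2os in the low libraries is under that FPKM. On this assumption the long form, Foxd2os-201, carried 16.3%, 16.0% and 16.8% of the Foxd2os abundance in the Gastruloid replicates. It carried 21.1%, 24.0% and 23.9% in the TLSMG replicates.

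The short form, which lacks the exon of 1705 bases, by the same calculation held 83.6% on average in Gastruloid and 77.0% in TLSMG. The share of the long form was 16.4% ± 0.4 (SD, n = 3) in Gastruloid and 23.0% ± 1.6 in TLSMG, and the groups did not overlap. The quotient contains the FPKM, from which the level that chose the gene follows, so the difference in shares is a description without a test. Leaving out each replicate in turn, a check added after the data were seen, kept the mean between 16.1% and 16.6% in Gastruloid and between 22.5% and 23.9% in TLSMG.

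In the 7 low libraries with any Foxd2os signal, the quotient lay at its limit for the long form alone, a calculated share of 100%. These values rest on 474 to 2692 aligned bases, against 57095 to 122569 in the high libraries, and the part of depth in them was not tested. All these shares are back-calculated from gene-level values and are not counts of reads over the junctions printed above. The quotient was 0.902 in these low libraries and 0.409 to 0.456 in the high ones. A given Foxd2os level thus stood for more coverage in the low libraries. Its coverage was 0.488, 0.461 and 0.835 at 96h and 17.709, 25.7 and 28.318 in Gastruloid, not scaled for library depth. The part of the division in the differences of level was not tested.

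**Figure D2:**
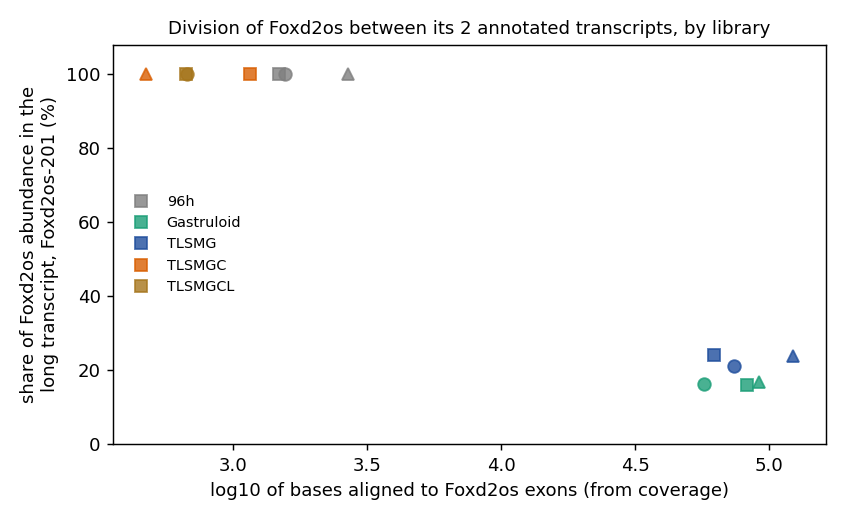
Calculated share of Foxd2os abundance in its long transcript (vertical axis, %) against the log10 of the bases aligned to Foxd2os (horizontal axis), with 1 symbol per library coloured by group. The 3 Gastruloid libraries sit at 16.0% to 16.8% and the 3 TLSMG libraries at 21.1% to 24.0%, while the 7 low libraries with signal stand at 100%.

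Within 500 kb on either side of Foxd2 the tables listed 22 genes. Of these, 9 passed the filter, and 7 of the 9 were neither Foxd2 nor Foxd2os. Of the 13 that did not pass, 8 were listed at 0 in every library and the highest reached 2.87 TPM. Among the 7 tested neighbours, 5 were lower and 1 higher in TLSMGC than in TLSMG, where 30.5% of all genes were lower and 10.4% higher. With median-of-ratios scaling Cmpk1, Stil and Tal1 lost this call, which left 2 lower, 9130410C08Rik and Gm12829. Against 96h, 3 of the 7 were higher in Gastruloid, where 20.8% of all genes were, and 5 in TLSMG, where 33.5% were. 9130410C08Rik and Gm12829 are in all these counts and Foxe3 in that of Gastruloid. These 3 passed the filter only through the groups in which they were high, 9130410C08Rik and Gm12829 through Gastruloid and TLSMG and Foxe3 through Gastruloid. Their differences between high and low groups are therefore given without a test, and nothing is read from the counts.

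The neighbour with the most similar pattern was the noncoding RNA 9130410C08Rik (ENSMUSG00000085323.1), which lies 3422 bases beyond the 3′ end of Foxd2 on the same strand. It was at 8.85, 9.57 and 9.34 TPM in Gastruloid and 10.9, 12.9 and 13.8 TPM in TLSMG. In all 9 libraries of the other groups it was listed at 0. The high and low libraries did not overlap.

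Its difference on the log2(TPM + 1) scale was 3.36 (SE 0.10) from 96h to Gastruloid and -3.75 (SE 0.10) from TLSMG to TLSMGC. Between the groups in which it was high, 9130410C08Rik was higher in TLSMG than in Gastruloid, by 0.40 (SE 0.10, limma adjusted p = 0.00667). That call was lost with median-of-ratios scaling (0.24, adjusted p = 0.0542) and with a pseudocount of 0.1 (adjusted p = 0.148).

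Foxe3, the forkhead gene of the lens, lies 3179 bases beyond the end of Foxd2os on the other strand. It was at 18.3, 3.35 and 4.13 TPM in Gastruloid and 0.579, 0.769 and 1.36 TPM in TLSMG, and it was listed at 0 in the other 9 libraries. Replicate 1 of Gastruloid stood apart from the other Gastruloid libraries, and without it Foxe3 no longer passed the filter. The difference was 2.92 (SE 0.39) from 96h to Gastruloid and -2.01 (SE 0.39) from Gastruloid to TLSMG. The Foxd2 and Foxd2os libraries of these groups overlapped.

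Trabd2b, which encodes a membrane protease that inactivates WNT ligands, went the other way. It had 1.78, 2.63 and 2.54 TPM in TLSMG and 7.95, 6.16 and 5.93 TPM in TLSMGC, a rise of 1.21 (SE 0.16, limma adjusted p = 4.64e-05). Tal1, a transcription factor of blood and endothelium, was at 5.77, 5.69 and 6.2 TPM in TLSMG and 0.893, 0.559 and 0.835 TPM in Gastruloid. Its rise with Matrigel was 1.97 (SE 0.26, adjusted p = 0.000198), where Foxd2 differed by 0.08. Tal1 was lower in TLSMGC than in TLSMG (log2 difference -0.84, SE 0.26, adjusted p = 0.0199), and it lost that call with median-of-ratios scaling (adjusted p = 0.0574), with a pseudocount of 0.1 (0.0626) and with only the 2 groups fitted (0.0511). It was also lost without TLSMG replicate 3 and without TLSMGC replicate 1 or 3.

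The noncoding gene Gm12829 was at 1.68, 1.58 and 2.21 TPM in Gastruloid and 2.95, 2.52 and 2.2 TPM in TLSMG. Its difference from TLSMG to TLSMGC was -1.64 (SE 0.25). From 96h to Gastruloid it was 0.72 (SE 0.25), and Gm12829 left the count of higher genes with a pseudocount of 0.1, with no minimum TPM and with only the 2 groups fitted. It also left that count without 96h replicate 2 or 3 and without each Gastruloid replicate in turn. Cmpk1, a nucleotide kinase gene, and Stil, a gene of centriole duplication, were expressed in all groups. They fell by 0.55 (SE 0.17, limma adjusted p = 0.0195) and 0.38 (SE 0.12, adjusted p = 0.0182) from TLSMG to TLSMGC. With median-of-ratios scaling both calls were lost, at adjusted p = 0.0937 and 0.113.

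**Figure D3:**
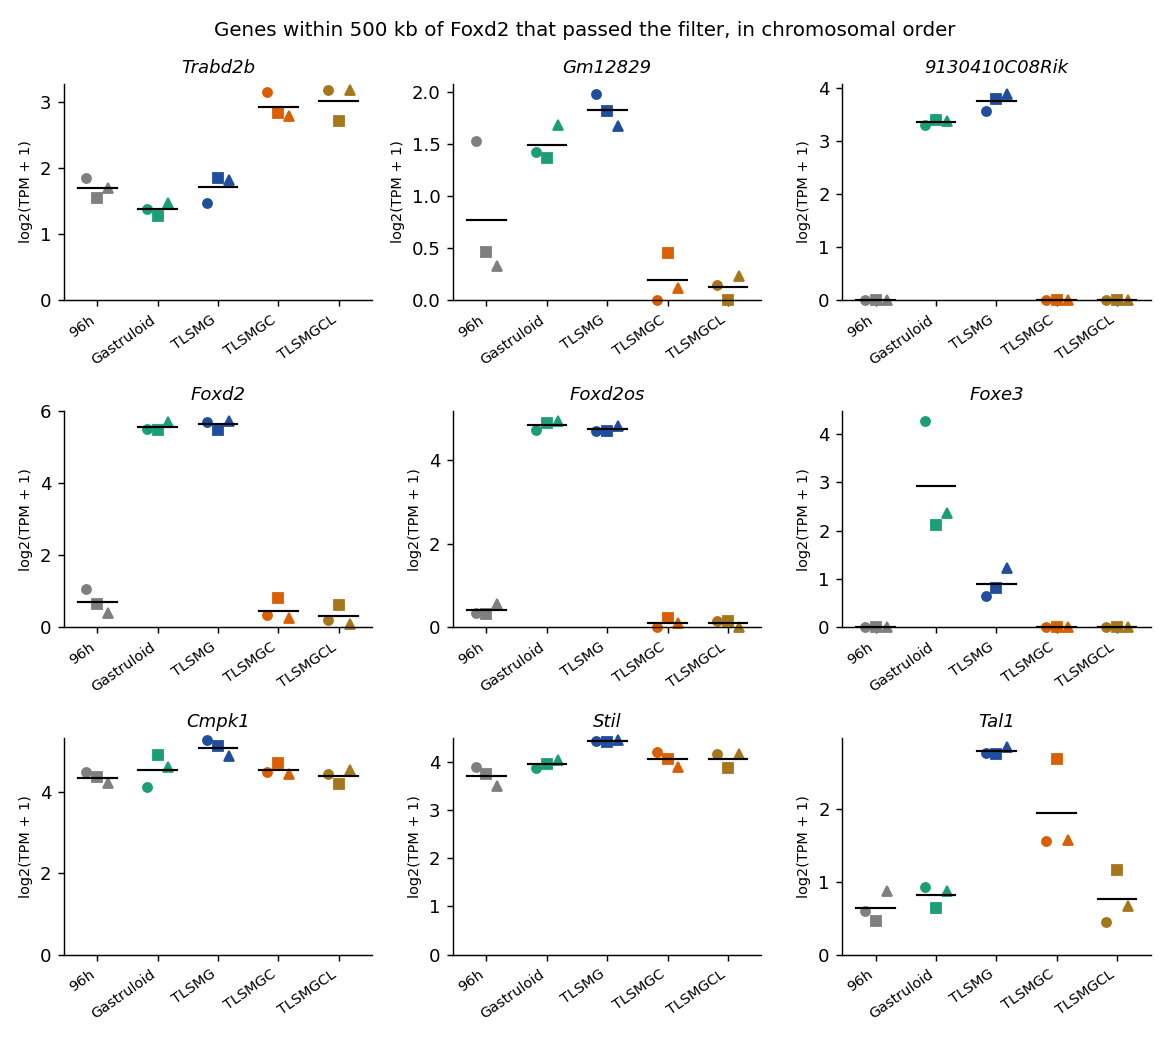
Levels on the log2(TPM + 1) scale (vertical axes, each starting at 0) of the 9 genes within 500 kb of Foxd2 that passed the filter, in chromosomal order, by group, with 1 symbol per library and a line at the mean. Foxd2, Foxd2os and 9130410C08Rik are high in the 6 Gastruloid and TLSMG libraries, and Trabd2b is highest in TLSMGC and TLSMGCL.

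Of the 3 other FoxD genes listed, Foxd1 passed the filter, and Foxd3 and Foxd4 did not, with 1.29 and 0.277 TPM at most. Foxd1, known from the stroma of the kidney, was at 5.85, 2.88 and 3.23 TPM at 96h, 19.7, 21.8 and 23.4 in Gastruloid and 18.6, 17.8 and 23.0 in TLSMG. It was at 12.9, 9.96 and 12.4 TPM in TLSMGC and 18.8, 14.2 and 17.3 in TLSMGCL. The mean of Foxd1 was 3.99 ± 1.63 TPM (SD, n = 3) at 96h and 11.8 ± 1.57 in TLSMGC, whereas the Foxd2 libraries of these groups overlapped.

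Foxd1 rose by 2.23 from 96h to Gastruloid (SE 0.19, limma adjusted p = 6.4e-07) and fell by 0.70 from TLSMG to TLSMGC (SE 0.19, adjusted p = 0.00884). From TLSMG to TLSMGCL its difference was -0.23 (SE 0.19, adjusted p = 0.343). The difference between the genes was not tested, since Foxd2 was chosen for its pattern.

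Among all 43 forkhead genes named for comparison, 25 passed the filter, Foxe3 and Foxd1 included. Of these, 5 both rose from 96h to Gastruloid and fell from TLSMG to TLSMGC, namely Foxd1, Foxa1, Foxo1, Foxo4 and Foxp4. Over all genes, 1408 of 14290 (9.85%) did so. The lowest difference of the 25 from TLSMG to TLSMGC was -1.68, in Foxa1, a pioneer factor of endoderm and floor plate. Foxa1 had 5.78, 4.48 and 6.66 TPM in TLSMG and 0.997, 1.69 and 0.597 in TLSMGC.

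Foxb1, a forkhead gene of the neural tube, moved the opposite way to Foxd2. It was at 22.6, 22.5 and 23.6 TPM in TLSMG and 96.7, 78.0 and 84.4 TPM in TLSMGC, a rise of 1.86 (SE 0.13, limma adjusted p = 2.02e-07). Foxo1, a target of insulin signalling, fell by 1.54 (SE 0.12, adjusted p = 4.94e-07). Excluding the FoxD genes, 24 forkhead genes were tested between TLSMG and TLSMGC, and 12 fell, 2 rose and 10 did not pass. Their median was -0.41 against -0.16 over all genes, of which 30.5% fell and 10.4% rose. With median-of-ratios scaling 9 fell and 2 rose.

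**Figure D4:**
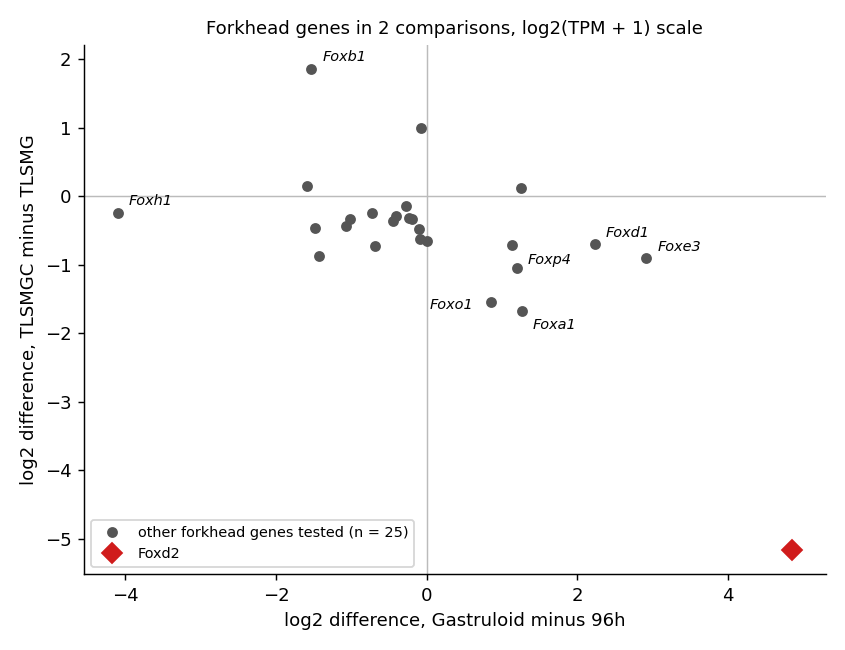
Log2 differences of the 25 other forkhead genes that passed the filter (grey) and of Foxd2 (red) between 96h and Gastruloid (horizontal axis) and between TLSMG and TLSMGC (vertical axis), on the log2(TPM + 1) scale. Foxd2 lies at 4.85 and -5.17, beyond the largest rise of the others, 2.92, and their lowest difference, -1.68.

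Likeness to Foxd2 was measured by Pearson's r of log2(TPM + 1) over the 15 libraries, as a description with no test, since all genes share the libraries and the 5 groups. Among the 14289 other genes, Foxd2os was the most like Foxd2, with r = 0.996. The next were Clic1 (0.994), 9130410C08Rik (0.993), Ccnd1 (0.990), Twist2 (0.987), Cped1 (0.985), Ebf2 (0.984), Thbs1 (0.982), Fzd8 (0.982) and Tmem2 (0.980). With a pseudocount of 0.1 Foxd2os ranked second.

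A high r did not mean a large change. Clic1, an intracellular chloride channel gene, had mean levels of 177 ± 5.82 TPM in Gastruloid and 181 ± 3.01 in TLSMG, 1.7 times its mean over the other libraries. Ccnd1, the gene of cyclin D1, had 211 ± 17.9 TPM in Gastruloid and 104 ± 6.5 in TLSMGC. Each value is a mean with SD over 3 libraries.

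Twist2 came closer to Foxd2 in size. It had 23.6 ± 2.44 TPM in Gastruloid, 23.9 ± 0.921 in TLSMG and 1.77 ± 0.381 in TLSMGC. Fzd8, a receptor of WNT ligands, had 24.1 ± 1.08, 24.6 ± 1.88 and 3.05 ± 0.39 TPM in the same groups. Ebf2, a transcription factor of mesenchymal lineages, had 6.54 ± 0.113 TPM in Gastruloid and 12.8 ± 1.24 in TLSMG, with higher values in the Matrigel group.

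The lowest correlations with Foxd2 were those of Plp2 (-0.990), Phlda3 (-0.987), Map3k6 (-0.985), Nkd2 (-0.985) and Sp5 (-0.983). Sp5, a transcription factor gene that WNT signalling activates, was at 98.3 ± 21.9 TPM at 96h, 3.72 ± 1.06 in Gastruloid and 177 ± 18.3 in TLSMGC. Nkd2, an inhibitor of WNT signalling, was at 31.1 ± 4.17, 11.3 ± 0.39 and 31.2 ± 2.07 TPM. The 10 genes most like Foxd2os shared 6 names with the 10 most like Foxd2, and they added Errfi1, Galnt18 and Spon1.

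**Figure D5:**
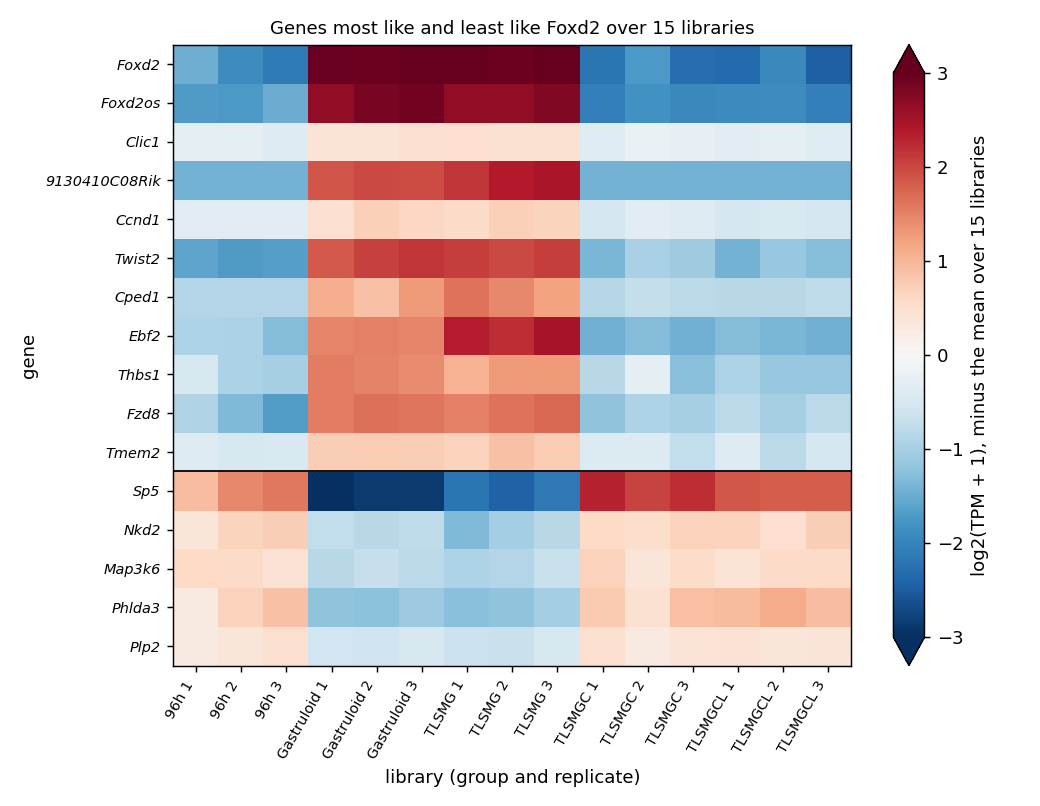
Log2(TPM + 1) minus its mean over 15 libraries (colour, cut at -3 and 3) for Foxd2, the 10 genes most like it and the 5 least like it (rows, above and below the line), in each library (columns). The 6 Gastruloid and TLSMG libraries share 1 colour in every row, and the size of the change ranges from faint in Clic1 to strong in Foxd2os.

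Targets of WNT signalling were high where Foxd2 and Foxd2os were low. From TLSMG to TLSMGC, 10 of 11 listed target genes rose, with a median of 1.50 against -0.16 over all genes, of which 10.4% rose. From 96h to Gastruloid, 9 of the 11 fell, where 20.5% of all genes did. Notum, a secreted WNT deacylase, was at 2.61, 1.79 and 2.76 TPM in TLSMG and 61.9, 73.6 and 65.6 in TLSMGC (log2 difference 4.34, SE 0.18, limma adjusted p = 1.62e-09). At 96h Notum had 6.55, 9.09 and 12.2 TPM. The summed level of the list was 192 to 221 TPM in TLSMG, 788 to 868 in TLSMGC and 696 to 704 at 96h.

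The summed level of BMP targets was lower with added CHIR, as Foxd2 was, and lower again with CHIR and LDN, where the Foxd2 libraries overlapped. From TLSMG to TLSMGC, 5 of 8 tested BMP targets fell and 2 rose, and 4 fell and 3 rose with median-of-ratios scaling. Their median was -0.52 against -0.16 over all genes, of which 30.5% fell and 10.4% rose. The sum ran from 430 to 496 TPM in TLSMG and from 207 to 229 TPM in TLSMGC. In TLSMGCL it ran from 94.7 to 107 TPM. It was 153 to 197 TPM at 96h and 234 to 255 in Gastruloid, and from 96h to Gastruloid 3 rose and 2 fell. Of all genes 20.8% rose and 20.5% fell there. From TLSMGC to TLSMGCL, 3 of 8 tested BMP targets fell, where 1.18% of all genes changed and 0.777% fell. Id3, an inhibitor of bHLH factors, was at 191.4, 256.5 and 213.9 TPM in TLSMG, 63.3, 70.1 and 73.2 in TLSMGC and 17.9, 23.0 and 19.4 in TLSMGCL (log2 difference -1.73, SE 0.14, limma adjusted p = 4.73e-05). The difference of Foxd2 there was -0.16 and that of Foxd2os -0.02.

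Markers of several tissues moved with Foxd2 and Foxd2os, and the part of changed tissue composition in the levels of the pair was not tested. Among sclerotome genes, the part of the somite that forms vertebrae, 5 of 6 tested fell and 1 rose from TLSMG to TLSMGC, with a median of -1.67. Of all genes 30.5% fell and 10.4% rose there. Pax1 is 1 of the 5 that fell, and it passed the filter only through Gastruloid and TLSMG, so nothing is read from its fall. Pax1 was at 12.6, 18.7 and 19.6 TPM in TLSMG and 0.244, 0.349 and 0.205 in TLSMGC. Pax1 differed from Foxd2 in being lower in TLSMG than in Gastruloid, where it had 55.2, 61.0 and 69.0 TPM (log2 difference -1.82, SE 0.14, limma adjusted p = 8.59e-06). The summed sclerotome level was 142 to 155 TPM in TLSMG and 125 to 152 in TLSMGC, so the sums overlapped.

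Neural tube genes were high in Gastruloid and TLSMG. From 96h to Gastruloid 8 of 8 rose, where 20.8% of all genes did. From TLSMG to TLSMGC 7 of 8 fell, with a median of -2.03, where 30.5% of all genes fell. Pax6 is in both counts and passed the filter only through Gastruloid and TLSMG, so nothing is read from its part in them. From Gastruloid to TLSMG 3 fell, where 7.87% of all genes did, and 6 fell with median-of-ratios scaling. Sox1, a marker of neural progenitors, was at 13.6, 21.5 and 18.4 TPM in TLSMG and 1.78, 1.73 and 2.79 in TLSMGC (log2 difference -2.60, SE 0.22, limma adjusted p = 9.02e-07). The summed level of the list was highest in Gastruloid (375 to 521 TPM) and TLSMG (205 to 302 TPM), against 53.1 to 65.1 TPM in TLSMGC and 59 to 69.7 TPM in the 96h libraries.

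Presomitic mesoderm genes went against Foxd2. All 9 fell from 96h to Gastruloid, and 6 of 9 rose from TLSMG to TLSMGC, with a median of 1.11. Of all genes, 20.5% fell in the first comparison and 10.4% rose in the second. Tbx6, a T-box factor of the presomitic mesoderm, was at 6.16, 3.95 and 7.94 TPM in TLSMG and 60.6, 56.2 and 68.0 in TLSMGC (log2 difference 3.19, SE 0.26, limma adjusted p = 7.69e-07). The summed level was 130 to 167 TPM in TLSMG and 320 to 407 in TLSMGC.

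Of 8 tested genes of intermediate mesoderm and early kidney, a tissue in which Foxd2 is known, 5 fell and 2 rose from TLSMG to TLSMGC. Of all genes 30.5% fell and 10.4% rose there. From 96h to Gastruloid 4 rose and 4 fell, where 20.8% and 20.5% of all genes did. The summed level was 220 to 252 TPM at 96h and 127 to 139 in Gastruloid. In TLSMG it was 168 to 175 TPM, and in TLSMGC 101 to 113. Osr1 fell in both comparisons and was at 16.2, 11.6 and 9.52 TPM at 96h and 1.52, 1.05 and 0.915 in Gastruloid. Wt1, a zinc finger factor of kidney precursors, was at 1.01, 1.5 and 2.53 TPM in Gastruloid and 5.44, 7.77 and 5.47 in TLSMG. It was listed at 0 in all 96h libraries and reached at most 0.111 TPM in TLSMGC and TLSMGCL. The difference from Gastruloid to TLSMG was 1.46 on the log2 scale (SE 0.18). Wt1 passed the filter only through TLSMG, so that difference is given without a test, and Wt1 is 1 of the 8 genes in the counts above.

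Endothelial genes fell in 7 of 7 cases from TLSMG to TLSMGC, with a median of -2.20, where 30.5% of all genes fell. From Gastruloid to TLSMG, whose Foxd2 libraries overlapped, 6 of 7 rose, where 31.5% of all genes did. Kdr, the receptor of VEGF, was at 4.59, 5.89 and 6.93 TPM in Gastruloid and 105.8, 94.8 and 85.2 in TLSMG (log2 difference 3.83, SE 0.36, limma adjusted p = 2.44e-05). Both tested neural crest genes, Ets1 and Snai2, fell from TLSMG to TLSMGC, by 2.30 and 0.86, and 5 of the 7 listed crest genes did not pass the filter.

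The remaining lists divided in both directions from TLSMG to TLSMGC. Of all genes 30.5% fell and 10.4% rose there, and nothing is read from the counts of these lists. Among 8 somite genes 2 rose and 3 fell. Meox2, which fell, was at 28.6, 29.1 and 35.1 TPM in TLSMG and 5.01, 7.7 and 5.07 in TLSMGC (log2 difference -2.22, SE 0.18, limma adjusted p = 7.46e-07). Like Foxd2, Meox2 was lower at 96h (2.8, 1.94 and 1.42 TPM) than in Gastruloid (14.1, 16.3 and 17.0 TPM). Aldh1a2, which rose, was at 33.0, 40.0 and 36.8 TPM in TLSMG and 158.5, 119.0 and 127.5 in TLSMGC (log2 difference 1.85, SE 0.12, limma adjusted p = 1.15e-07). Tbx18, a T-box factor of the anterior somite, was at 7.25, 7.67 and 9.16 TPM in TLSMG and 0.423, 0.648 and 0.407 in TLSMGC, and its 96h level of 7.16, 4.3 and 3.58 TPM was not low, unlike that of Foxd2. Of 5 dermomyotome and myotome genes 1 rose and 3 fell, and of 5 lateral plate genes 1 rose and 1 fell. Among 6 genes of the retinoic acid response 1 rose and 4 fell, and 2 fell with median-of-ratios scaling.

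Other gene pairs named like Foxd2 and Foxd2os moved in various ways. The filter left 33 other pairs of a gene and a transcript with the same symbol followed by os. From TLSMG to TLSMGC both members changed in 8 pairs, of which 3 fell together, 4 rose together and 1 moved in opposite directions. From 96h to Gastruloid both changed in 6 pairs, of which 5 fell together and 1 moved in opposite directions. Since 40.9% and 41.2% of all genes changed in these comparisons, nothing is read from the counts.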

How the data were processed

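RNA sequencing of 15 bulk libraries was used. The submitters' processing notes name cutadapt 2.4, STAR 2.7.3a and StringTie 2.0 and the build mm10, with no role or order. The kit was stranded, per the series' design text, and the annotation release and the use of strand in quantification are not given in the sources used here. The deposited TPM, the deposited FPKM and the deposited coverage signal (mean depth over exons) stood side by side per gene, per the file headers. Repeated lines of a gene (7 to 13 per library) were summed.

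Log2(TPM + 1) of 14290 genes with a mean of at least 1 TPM was fitted in limma 3.58.1 (R 4.3.3) with a mean trend, all 5 groups in 1 model and 6 two-sided comparisons, adjusted by Benjamini-Hochberg at 0.05. The code was tested on simulated data. Gene models came from GENCODE M21, which lies on GRCm38. The genes, the 14 lists and the naming rules were chosen with earlier results of these data known. Named from a list were the FoxD genes and up to 3 genes with the largest change from TLSMG to TLSMGC, and from the locus every gene that passed the filter. Foxo4, Foxp4 and the genes named in the order of gaps were chosen after their values were seen, and those named by likeness were the 10 highest and 5 lowest. Without counts, no intervals or detection floors were computed, and a listed 0 can be a failed estimate. Replicate numbers were not used to pair the libraries in this fit. Python 3.11.15, numpy 2.4.6, pandas 2.3.3, scipy 1.17.1 and matplotlib 3.10.9 were used.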

Additional observations from a re-analysis of the deposited data

How the results depend on the processing

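The direction of the large differences of Foxd2 and Foxd2os held under every alternative tried, and their size depended on the scale. With a pseudocount of 0.1 the Foxd2 differences were 6.05 (96h to Gastruloid), 6.13 (96h to TLSMG), -6.76 (TLSMG to TLSMGC), -7.34 (TLSMG to TLSMGCL) and -0.58 (TLSMGC to TLSMGCL), and those of Foxd2os were 6.07, 5.96, -7.25 and -7.32 in the first 4 of these. With FPKM in place of TPM they were 4.24, 4.15, -4.29 and -4.37 for Foxd2 and 3.72, 3.46, -3.61 and -3.62 for Foxd2os. From Gastruloid to TLSMG the Foxd2 difference was -0.09 with FPKM and -0.09 with median-of-ratios scaling, and that of Foxd2os -0.26 and -0.27. That scaling also gave Foxd2os 4.18 (96h to TLSMG), -4.47 (TLSMG to TLSMGC) and -4.49 (TLSMG to TLSMGCL). Leaving out 1 library at a time, Foxd2 ranged from 4.70 to 5.03, 4.78 to 5.11, 0.03 to 0.15, -5.34 to -5.07, -5.49 to -5.23 and -0.31 to 0.01 over the 6 comparisons (96h to Gastruloid, 96h to TLSMG, Gastruloid to TLSMG, TLSMG to TLSMGC, TLSMG to TLSMGCL, TLSMGC to TLSMGCL). Foxd2os ranged from 4.40 to 4.52, 4.29 to 4.41, -0.17 to -0.06, -4.68 to -4.57, -4.67 to -4.59 and -0.07 to 0.04.

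Counts of changed genes stayed within 1.5 times, except between TLSMGC and TLSMGCL, where 169 genes became 43 when only these groups were fitted. There they ranged from 56 to 197 with 1 library left out, with 56 without TLSMGC replicate 2, 70 without TLSMGCL replicate 1 and 78 without TLSMGCL replicate 3. Median-of-ratios scaling moved the split of higher and lower genes from 4792 and 1785 to 3134 and 3342 (96h to TLSMG), from 4497 and 1125 to 2744 and 2584 (Gastruloid to TLSMG), from 1490 and 4352 to 2744 and 2560 (TLSMG to TLSMGC), from 1330 and 5086 to 2839 and 2736 (TLSMG to TLSMGCL), and from 58 and 111 to 104 and 101 (TLSMGC to TLSMGCL). Between 96h and Gastruloid, FPKM moved it from 2969 and 2925 to 3597 and 2158. No listed gene called under both scalings changed direction.

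With the replicate number as a block, 5659, 6381, 5382, 5599, 6187 and 122 genes changed in the 6 comparisons. No shared effect of the replicate number was seen. The mean correlation of same-numbered deviations was -0.07 to 0.03, and 1 of 15 libraries was closest to its own number. These values cannot show whether same-numbered libraries were prepared together. Of the named genes, Tal1 from TLSMGC to TLSMGCL lost its call under the block (adjusted p = 0.0705, limma). Small differences that changed sign were those of Trabd2b from 96h to TLSMG (-0.03 with FPKM, -0.10 with median-of-ratios scaling, -0.06 to 0.14 with 1 library left out), and, with 1 library left out, Gm12829 (-0.16 to 0.07) and Stil (-0.06 to 0.12) from TLSMGC to TLSMGCL. The cause of these changes was not tested. The low levels of Foxd2 and Foxd2os rest on few aligned bases, which limits ratios against them.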
